A study of Mus musculus with 46 samples.

Results

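Tpt1, Naca, Btf3, Rack1 and Nap1l1 are non-ribosomal genes whose mRNAs are known to carry a 5′ terminal oligopyrimidine (TOP) motif. They were chosen by name, and all 5 are among the 9857 gene symbols that stand on 1 entry each in both the DMSO and the torin 1 count tables. The labels list 23 libraries of ribosome footprints and 23 of poly(A) RNA from EPP2 cells. EPP2 is a murine pancreatic cancer line that here carries doxycycline-inducible Cas9 (iCas9). In the Ctu1KO groups, Ctu1 was disrupted by Cas9 with doxycycline (300 ng/mL, 4 days), whereas control cells kept Ctu1. Cells of both genotypes then received DMSO or 300 nM torin 1, an inhibitor of the kinase mTOR, for 2 h, which gave, for each assay, 6 control replicates with DMSO, 6 control replicates with torin 1, 5 Ctu1KO replicates with DMSO and 6 Ctu1KO replicates with torin 1. The study's own text differs on how many of the numbered replicates are independent, and p-values below are too small where they are not. In this study a control was either a line whose guide targets non-coding DNA or a line that received no doxycycline, and the labels do not say which one was sequenced. The iCas9 lines grew from single cells, so that every culture of a line shares 1 clone.

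A TOP mRNA begins with a cytosine followed by an unbroken stretch of pyrimidines, and its loading onto ribosomes depends on mTORC1, the mTOR complex that senses growth factors and nutrients. When mTORC1 is inhibited, 4E-BP and LARP1 proteins repress these mRNAs, most of which encode ribosomal proteins and translation factors. Ctu1 is part of the enzyme that thiolates the wobble uridine of the tRNAs reading AAA, CAA and GAA (VAA) codons, and ribosomes slow at these codons without it. Rack1 is a propeller-shaped scaffold protein on the small ribosomal subunit. Naca and Btf3 are the α and β subunits of the nascent polypeptide-associated complex, a dimer that contacts new proteins as they leave the ribosome. Tpt1 encodes the translationally controlled tumor protein, an abundant growth-associated protein, and Nap1l1 encodes a histone chaperone.

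The first bases of an mRNA decide whether it is a TOP mRNA, so the annotated 5′ ends of the 5 genes are shown here, with the first run of a C and at least 4 further C or T in capitals. Where a gene has several annotated starts, the one whose run begins earliest is shown. The sequences are from GRCm38, 5′ to 3′ on the strand of the gene, with transcript names of GENCODE M21, and each window of 30 bases lies in the 5′ UTR of exon 1 of a protein-coding transcript. The Naca window is that of a longer isoform of 2187 codons, and at the start of the 215-codon isoform, used for codons and levels per kilobase, the run began at base 15. A window begins at the annotated start or, where the run is further in, 10 bases before the run.
Rack1 (Rack1-201, plus strand, chr11:48800360-48800389): CTTTTTCTCCacagggtcgtggtggcagcc
Nap1l1 (Nap1l1-207, plus strand, chr10:111473227-111473256): CTTTTTTagcgccatctgctcgcggcgccg
Naca (Naca-202, plus strand, chr10:128035635-128035664): ctcgctcgttCTCTTTCTgccgccatcttg
Btf3 (Btf3-205, minus strand, chr13:98316973-98317002): cgtcgcgttaCTTCCggcctccctctagct
Tpt1 (Tpt1-205, plus strand, chr14:75845320-75845349): cccgcgtcggCCTTTTCCgcccgctccccc

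The starts shown for Rack1 and Nap1l1 began with such a run at base 1, 10 and 7 bases long. At other annotated starts of Nap1l1 the run began at base 5 (Nap1l1-201, used for codons), 16 or 27. None was found at Nap1l1-205. In Naca-202 the run began at base 11, in Btf3-205 at base 15 and in Tpt1-205 at base 29, so that an annotated start with the run at base 1 was found for 2 of the 5 genes. At the RefSeq starts alone it was also 2 of 5, and 3 of 5 had a run beginning within the first 30 bases. Over the RefSeq starts of 8255 listed genes, 2.99% had the run at base 1 and 41.2% had it beginning within the first 30 bases, on the sense strand only. Among 61 ribosomal protein genes with a RefSeq start, these shares were 23.0% and 78.7%. The starts used in these cells were not measured. The genes lie on chromosome 11 (Rack1, 48800332 to 48806434), chromosome 10 (Nap1l1, 111473223 to 111498150, and Naca, 128035575 to 128048637), chromosome 13 (Btf3, 98309896 to 98317006) and chromosome 14 (Tpt1, 75845093 to 75848525).

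Footprint libraries held 4602092 to 52907878 counts. The RNA libraries of replicates 1 to 3 held 129881946 to 293648854, with replicate 3 at 214922186 or more and replicates 1 and 2 at 158915842 or less. Levels below are counts divided by the library total and scaled to 1000000 (CPM), a relative measure, so that a change in total footprints per cell could not be seen. An axis was drawn from DMSO (0) to torin 1 (1) through replicates 1 and 2, so that their own labels could not be checked by it. All other footprint libraries lay on the side of their labels, at 0.526 to 0.619 with torin 1 and at -0.0108 to 0.155 with DMSO. Among the RNA libraries, those labelled control torin 1 replicates 5 and 6 lay at 0.0975 and 0.108, those labelled Ctu1KO torin 1 replicates 5 and 6 at 0.0818 and 0.0234, and those labelled Ctu1KO DMSO replicates 4 and 5 at 0.808 and 0.675, which goes against their labels. Transcripts are reported from replicates 1 to 3, as set with the choice of the genes, and none of these libraries is among them. Later libraries on the side of their labels, such as control replicate 4, were left out as well. The same tests over all replicates as labelled are given in the closing section. Ctu1 itself was listed only in the DMSO tables, with 4.62 ± 0.12 CPM of RNA in control and 4.63 ± 0.30 in Ctu1KO cells (SD, n = 3 each). Its footprints overlapped, at 1.58 to 3.43 CPM in control (mean 2.53) and 1.30 to 2.28 CPM in Ctu1KO cells (mean 1.79). Reads over the whole gene do not show whether Cas9 cut it. Of 6 epithelial markers 5 were listed, including Krt8 at 128 to 193 CPM of RNA with DMSO, while Cdh1 was not and Epcam lay at 0.985 to 1.49. None of 5 acinar and 4 endothelial markers and 1 of 5 leukocyte markers were listed, whereas 5 of 6 fibroblast markers were, with Col1a1 at 88.7 to 164 and the other 4 between 0.868 and 33.7, while Col1a2 was not. Replicates of a group differed by more than counting error in each of the 55 pairs per assay, and libraries of different groups were not compared in this way.

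A footprint of the shortest kept length, 27 bases, cannot be placed with certainty where a processed copy of the gene has the same bases. Of all windows of that length in the coding sequence, transcripts of other genes shared all for Tpt1, 95.2% for Naca, 88.2% for Nap1l1, 70.1% for Btf3 and 5.73% for Rack1. The counts of the first 4 genes are therefore uncertain in so far as counting split reads between copies, and the Rack1 counts are the least affected. Per kilobase of coding sequence, the mean footprint level in control cells with DMSO was highest for Tpt1 (2726 CPM per kb), followed by Nap1l1 (1576), Btf3 (1362), Naca (1315) and Rack1 (1038), with SDs of 411, 260.0, 90.5, 125 and 68.6 over 6 libraries. In this order Nap1l1 and Btf3, and Btf3 and Naca, did not differ beyond their spread. These levels placed the genes at ranks 61, 112, 133, 138 and 173 of 10105.

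Torin 1 in control cells answers how far the 5 mRNAs lose ribosomes when mTOR is inhibited. Footprints of 4 of the 5 fell, against 4.33% of 9856 genes that fell (edgeR's quasi-likelihood test, Benjamini-Hochberg over all genes tested, as for every adjusted p-value of a log2 fold change below unless another tool is named). The sizes were unequal: Tpt1 fell by 1.66 on the log2 scale and Rack1 by 0.98, while Naca and Btf3 fell by 0.34 and 0.30, and Nap1l1 differed by -0.37 without passing the test. The median over the 5 mRNAs was -0.37, that over all genes 0.01.

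Tpt1 footprints lay at 1087 to 1599 CPM (median 1503) in the 6 control libraries with DMSO and at 391 to 531 CPM (median 485) in the 6 with torin 1. The groups did not overlap, and 2.42% of 9857 genes were lower with torin 1 without overlap. The difference was 3.16-fold (log2 fold change -1.66 ± 0.11 SE, adjusted p = 1.14e-07), which placed Tpt1 second from the bottom of all genes tested. Rack1 footprints ranged from 905 to 1087 CPM (median 981) with DMSO and from 442 to 595 (median 536) with torin 1. Again no library of one group reached the other, and Rack1 footprints were 1.98-fold lower (-0.98 ± 0.09, adjusted p = 5.19e-06). Within replicates 1 and 2 and within replicates 3 to 6, which differ in RNA depth, the log2 fold changes were -1.73 and -1.62 for Tpt1 and -1.07 and -0.95 for Rack1.

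Naca and Btf3, the partners of one complex, had similar values. Naca lay at 757 to 977 CPM (median 846) with DMSO and at 597 to 814 (median 730) with torin 1. Btf3 lay at 749 to 913 CPM (median 838) with DMSO and at 641 to 802 (median 721) with torin 1. The groups overlapped for both genes, but footprints were lower with torin 1 in 6 of 6 pairs of same-numbered cultures. The differences were 1.26-fold for Naca (-0.34 ± 0.09, adjusted p = 0.0327) and 1.23-fold for Btf3 (-0.30 ± 0.08, adjusted p = 0.0251). Neither call was firm. With library totals in place of TMM factors, which moves the median of all genes to 0.10, the adjusted p was 0.118 for Naca and 0.113 for Btf3, and leaving out 1 library gave 0.0243 to 0.0723 for Naca and 0.0191 to 0.0581 for Btf3. The call was lost for Naca without control DMSO replicate 1, 2, 5 or 6 or control torin 1 replicate 3, 4, 5 or 6, and for Btf3 without control DMSO replicate 1 or 2 or control torin 1 replicate 3, 4, 5 or 6.

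Nap1l1 footprints ranged from 1552 to 2260 CPM (median 1732) with DMSO and from 1282 to 1916 (median 1379) with torin 1. Replicates 5 and 6 were high in both groups and the groups overlapped, but each torin 1 library was lower than its same-numbered DMSO library in 6 of 6 pairs. The log2 fold change was -0.37 ± 0.12 (adjusted p = 0.0941). Same-numbered cultures deviated together in these libraries, and with the replicate number as a block the same difference passed the test (-0.37 ± 0.04, adjusted p = 9.61e-05), as did all 5 mRNAs, while the number of genes called rose from 714 to 2019. Nap1l1 passed also with DESeq2 (adjusted p = 0.0427) and, with edgeR, without control torin 1 replicate 6 (0.0469).

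**Figure D1:**
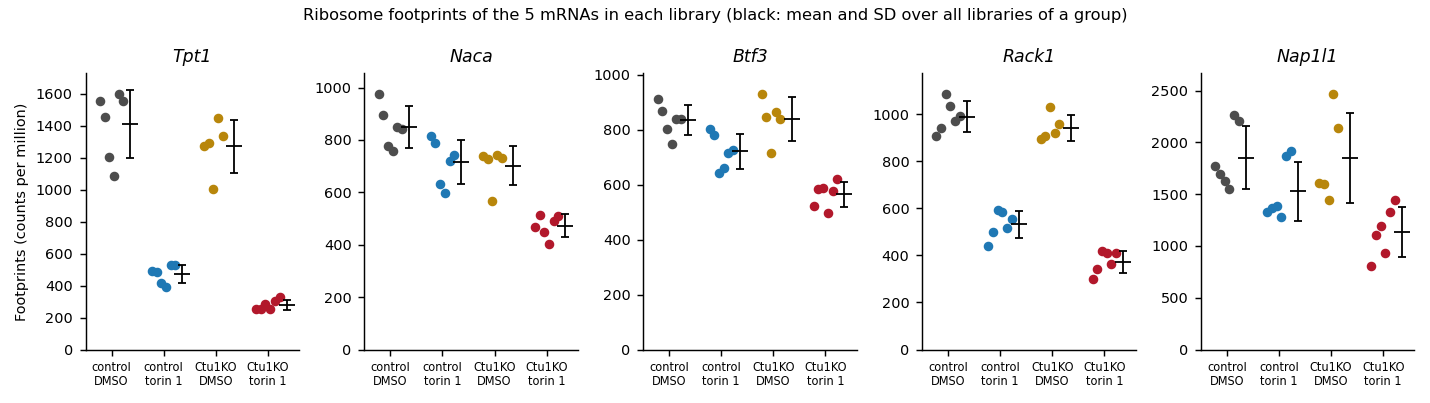
Footprints of each mRNA (vertical axes, CPM, from 0) in each library of the 4 groups, in order of replicate number. Points are libraries, and black marks are the mean and SD over the 5 or 6 libraries of a group. Tpt1 falls from 1087 to 1599 CPM to 391 to 531 CPM in control cells, whereas the control groups of Naca, Btf3 and Nap1l1 overlap.

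In Ctu1KO cells, torin 1 lowered footprints of all 5 mRNAs, against 4.52% of 9855 genes that fell. The fold changes are set against those in control cells by a test of the difference further on. Their median was -0.80 over the 5 and 0.02 over all genes. For each of the 5, the 5 DMSO and 6 torin 1 libraries did not overlap, which held for 3.41% of 9857 genes in this direction.

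Tpt1 footprints stood at 1273, 1291, 1004, 1450 and 1336 CPM in the 5 Ctu1KO libraries with DMSO and at 252 to 325.4 CPM (median 271) in the 6 with torin 1. Among the DMSO libraries replicate 3 was lowest, and it still lay far above every torin 1 library. The decrease was 4.87-fold (-2.28 ± 0.11, adjusted p = 4.08e-09), at rank 12 from the bottom of 9855 genes. Rack1 went from 893, 907, 1030, 920 and 959 CPM to 299 to 417 CPM (median 386), a 2.70-fold decrease (-1.43 ± 0.10, adjusted p = 1.43e-07).

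Naca stood at 738, 726, 567.6, 743 and 732 CPM with DMSO and at 403 to 515 (median 481) with torin 1. Btf3 stood at 931, 848, 714, 864 and 840 CPM with DMSO and at 498 to 620 (median 581) with torin 1. Both subunits of the complex thus fell by a similar amount, 1.58-fold for Naca (-0.66 ± 0.10, adjusted p = 0.000639) and 1.59-fold for Btf3 (-0.67 ± 0.09, adjusted p = 0.000269). Nap1l1 went from 1610, 1602, 1445, 2470 and 2137 CPM to 810 to 1441 CPM (median 1146). Its highest torin 1 library lay just under its lowest DMSO library, and the decrease was 1.74-fold (-0.80 ± 0.16, adjusted p = 0.00752). Leaving out any 1 library kept the 5 calls. Within replicates 1 and 2 only Tpt1 and Rack1 passed, with adjusted p-values of 0.0967 for Naca, 0.0568 for Btf3 and 0.0854 for Nap1l1 (edgeR). There the log2 fold changes ranged from -0.66 (Naca) to -2.43 (Tpt1), and within replicates 3 to 6 from -0.61 (Btf3) to -2.22 (Tpt1).

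Other classes of mRNA showed where the 5 stood. Of 82 ribosomal protein genes, which make up most TOP mRNAs, 79 fell with torin 1 in control and 81 in Ctu1KO cells, with medians of -0.96 and -1.58. Of 20 further TOP mRNAs, mostly translation factors, 15 and 18 fell, with medians of -0.49 and -1.04. Among them the elongation factor Eef1a1, with the highest footprint level of the 20 (12461 ± 605 CPM in control with DMSO), fell by 1.26 ± 0.07 in control and by 2.48 ± 0.07 in Ctu1KO cells on the log2 scale. The nucleolar protein Npm1 fell by 0.47 ± 0.09 and 1.01 ± 0.11, and the intermediate filament protein Vim fell by 0.48 ± 0.10 and 0.93 ± 0.11. Of 17 other factors that act on nascent chains at the exit of the ribosome, 0 passed the test in control cells (edgeR; 1 had an unadjusted p under 0.05) and 3 fell in Ctu1KO cells, with medians of -0.13 and -0.28.

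Of the same-family relatives of the 5 genes, which are not known as TOP mRNAs, 4 were listed and Nacad, the relative of Naca, was not. None of the 4 passed the test in either genotype (edgeR; an unadjusted p under 0.05 was reached by 1 in control and 0 in Ctu1KO cells, and DESeq2 called 0 and 0). The log2 fold changes were 0.23 ± 0.09 and -0.05 ± 0.12 for Gnb1, 0.14 ± 0.08 and 0.11 ± 0.09 for Gnb2, both G protein β subunits built like Rack1, -0.05 ± 0.08 and 0.11 ± 0.12 for Nap1l4 and -0.01 ± 0.14 and -0.02 ± 0.15 for Btf3l4, in control and Ctu1KO cells. The value of Gnb1 in control cells is the one with the unadjusted p under 0.05. In CPM, Gnb1 and Gnb2 were lower with torin 1 in 0 of 6 same-numbered control pairs, and both enter the ratios of Rack1 below. With library totals the negative values turned positive (Nap1l4 0.04 and Btf3l4 0.07 in control, Gnb1 0.05 and Btf3l4 0.07 in Ctu1KO cells). Annotated starts of Btf3l4 and Gnb2 also held a pyrimidine run, at base 1 and base 7, whereas none was found within 30 bases of those of Gnb1 and Nap1l4. At the RefSeq starts of Btf3l4 and Gnb2 the run began at base 12 and base 16.
Btf3l4 (Btf3l4-204, minus strand, chr4:108833585-108833614): CTCTCCCgccgccgccgccgctgccgccgc
Gnb2 (Gnb2-214, minus strand, chr5:137533155-137533184): cccgcgCTCCTCCaagcgaccccttggcag

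Set against its relative within the same library, Rack1 lost footprints to both Gnb1 and Gnb2. The mean difference, torin 1 minus DMSO, of the log2 ratio was -1.22 (Gnb1) and -1.13 (Gnb2) in control and -1.38 and -1.55 in Ctu1KO cells (two-sided exact permutation test over cultures, adjusted p = 0.00577 for each, Benjamini-Hochberg over 8 tests). Nap1l1 fell relative to Nap1l4 by 0.31 in control (adjusted p = 0.0148, exact permutation test) and by 0.91 in Ctu1KO cells (adjusted p = 0.00577). This ratio was lower in 6 of 6 same-numbered control pairs and in 5 of 5 in Ctu1KO cells, where same-numbered cultures were not taken as paired. Btf3 fell relative to Btf3l4 by 0.67 in Ctu1KO cells (adjusted p = 0.00577, exact permutation test), and in control cells the difference of -0.29, lower in 5 of 6 pairs, did not pass (adjusted p = 0.0628, exact permutation test).

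**Figure D2:**
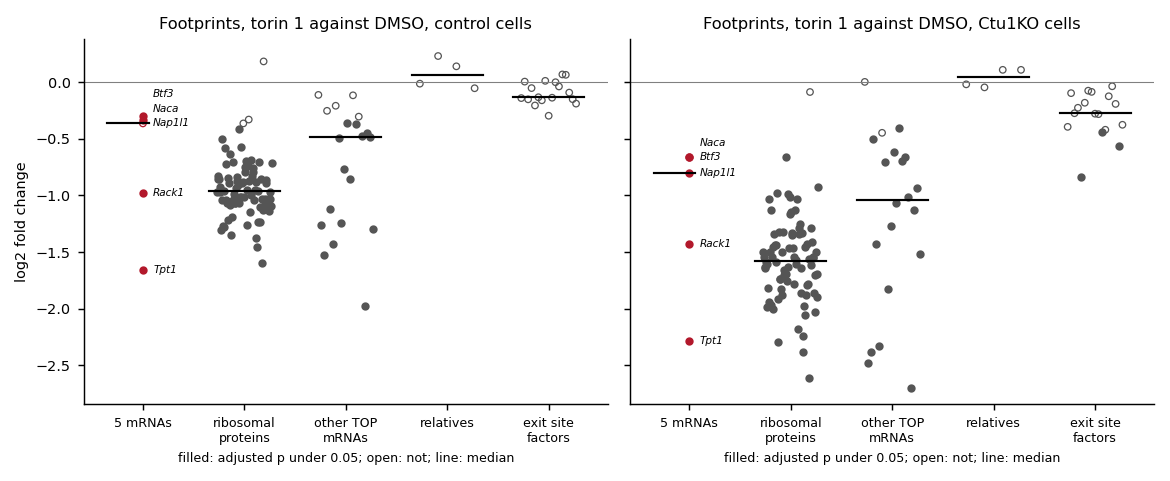
Log2 fold change of footprints, torin 1 against DMSO (vertical axis), in control (left) and Ctu1KO cells (right), for the 5 mRNAs and the lists of ribosomal proteins (82 genes), other TOP mRNAs (20), relatives (4 listed) and exit site factors (17). Each point is a gene, filled where its adjusted p is under 0.05, and lines are medians, which lie at -0.96 and -1.58 for ribosomal proteins and at -0.37 and -0.80 for the 5 mRNAs.

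The level of each mRNA was also compared with the mean over the ribosomal protein genes of the same library, on the log2 scale (CPM with a pseudocount of 1). Tpt1 fell more than this mean, and Naca, Btf3 and Nap1l1 fell less. Single ribosomal protein genes ranged from -1.60 to 0.18 on the log2 scale in control cells, all above Tpt1, and from -2.61 to -0.09 in Ctu1KO cells, on both sides of Tpt1. For Tpt1 the ratio had a median of 0.79 (range 0.51 to 1.103) in control libraries with DMSO and of 0.04 (-0.18 to 0.38) with torin 1. The mean difference was -0.72 in control and -0.71 in Ctu1KO cells (two-sided exact permutation test, adjusted p = 0.00722 for both, over 10 tests).

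Relative to ribosomal protein mRNAs, Naca rose by 0.60 in control and 0.91 in Ctu1KO cells, and Btf3 by 0.64 and 0.90 (exact permutation test, adjusted p = 0.00722 for each). The Naca ratio ran from -0.01 to 0.19 with DMSO and from 0.43 to 0.85 with torin 1 in control cells, and that of Btf3 from -0.02 to 0.17 and from 0.56 to 0.82. Nap1l1 rose by 0.57 (adjusted p = 0.0298, exact permutation test) and 0.77 (adjusted p = 0.0186, exact permutation test), although its groups overlapped in both genotypes. The control value lost its call without any of control DMSO replicates 1 to 4 or control torin 1 replicates 3, 5 and 6 (0.0541 to 0.0595). Rack1 differed from the ribosomal protein mean by -0.05 in control (adjusted p = 0.649, exact permutation test) and by 0.13 in Ctu1KO cells (adjusted p = 0.245). It was lower with torin 1 in 5 of 6 same-numbered control pairs and in 0 of 5 in Ctu1KO cells, where same-numbered cultures were not taken as paired. The control value turned to 0.01 with the median in place of the mean and to 0.03 without control torin 1 replicate 1. The smallest p these tests can give is 0.00216 with 6 against 6 libraries and 0.00433 with 6 against 5.

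**Figure D3:**
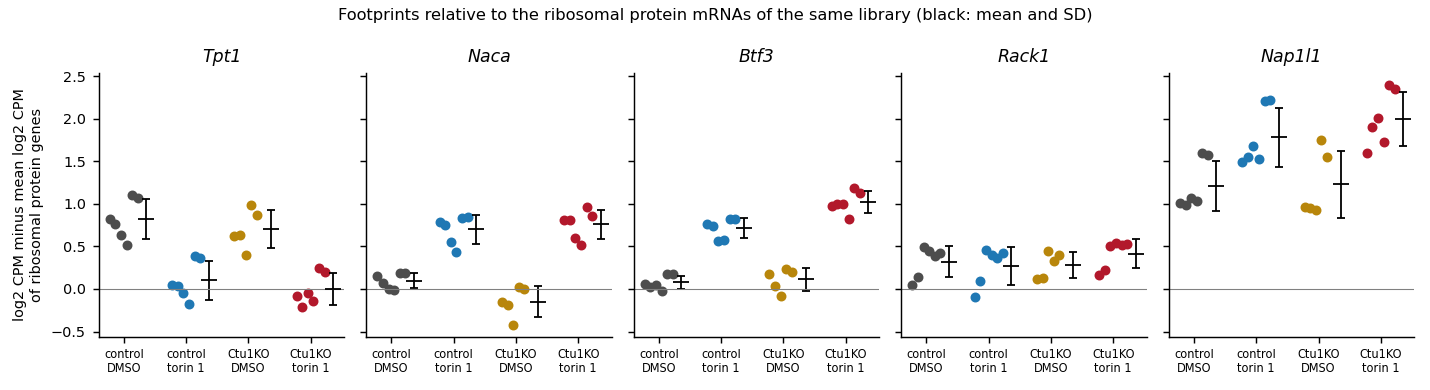
Footprint level of each mRNA minus the mean over the ribosomal protein genes of the same library (vertical axis, log2 CPM). Points are libraries in order of replicate number and black marks the mean and SD of a group of 5 or 6. With torin 1 the points move down for Tpt1 (by 0.72 in control) and up for Naca and Btf3 (by 0.60 and 0.64), and overlap between treatments for Rack1.

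The effect of Ctu1 loss on the 5 mRNAs was compared within each treatment. With DMSO, none of the 5 passed the test, against 2.66% of 10397 genes called in either direction (edgeR; 1 of the 5 had an unadjusted p under 0.05, and DESeq2 called 1). That gene was Naca, at 757 to 977 CPM in control and at the 5 values up to 743 CPM given above in Ctu1KO cells. The groups did not overlap, as for 1.58% of 9857 genes in this direction, and the log2 fold change was -0.32 ± 0.09 (adjusted p = 0.0832, and 0.0220 with DESeq2). The other 4 overlapped between genotypes, with log2 fold changes of -0.19 ± 0.11 (Tpt1), -0.11 ± 0.08 (Rack1), -0.04 ± 0.14 (Nap1l1) and -0.03 ± 0.08 (Btf3), and those of Nap1l1 and Btf3 turned to 0.000993 and 0.00753 with library totals. Of the 82 ribosomal protein genes 0 passed (edgeR; 9 had an unadjusted p under 0.05), with a median of -0.07. Of the 20 other TOP mRNAs 5 were lower and 1 was higher (edgeR; 10 had an unadjusted p under 0.05), with a median of -0.13.

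With torin 1, footprints of 4 of the 5 were lower in Ctu1KO than in control cells, against 2.60% of 9913 genes that were lower. The libraries of these 4 did not overlap between genotypes, as for 2.08% of 9857 genes in this direction. Tpt1 was 1.75-fold lower (-0.81 ± 0.10, adjusted p = 0.000241), Naca 1.56-fold (-0.64 ± 0.10, adjusted p = 0.00154), Rack1 1.47-fold (-0.56 ± 0.11, adjusted p = 0.00715) and Btf3 1.31-fold (-0.39 ± 0.09, adjusted p = 0.0189). Of the ribosomal protein genes 72 of 82 were lower (median -0.71), of the other TOP mRNAs 11 of 20 (median -0.47) and of the exit site factors 2 of 17.

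Nap1l1 overlapped between genotypes with torin 1, at 1282 to 1916 CPM in control and 810 to 1441 in Ctu1KO cells, but was lower in 6 of 6 same-numbered pairs. Its log2 fold change was -0.47 ± 0.15 (adjusted p = 0.0934). Same-numbered cultures deviated together here as well, and with the replicate number as a block the value was -0.48 ± 0.06 (adjusted p = 0.000654), all 5 mRNAs passed and the number of genes called rose from 479 to 1425. DESeq2 also called Nap1l1 (adjusted p = 0.0319). Replicates 1 and 2 alone gave log2 fold changes of -0.97 (Tpt1), -0.73 (Naca), -0.58 (Rack1), -0.54 (Btf3) and -0.52 (Nap1l1), and replicates 3 to 6 gave -0.73, -0.59, -0.55, -0.32 and -0.45. None of the 5 passed in replicates 1 and 2 alone (edgeR), and in replicates 3 to 6 Btf3 no longer passed (adjusted p = 0.0549).

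Whether torin 1 acted more strongly without Ctu1 was tested as the difference of the 2 torin 1 effects over all 4 groups. Tpt1 passed the test, by -0.62 ± 0.15 on the log2 scale (adjusted p = 0.0491), and the other 4 mRNAs did not, against 0.639% of 9857 genes with a lower value. The remaining differences were -0.44 ± 0.13 for Rack1 (adjusted p = 0.212), -0.36 ± 0.11 for Btf3 (0.269), -0.32 ± 0.13 for Naca (0.835) and -0.43 ± 0.21 for Nap1l1 (0.9998). All 5 were negative, and 39 of 82 ribosomal protein genes (median -0.64) and 6 of 20 other TOP mRNAs (median -0.33) passed in the same direction. The Tpt1 call stood close to the threshold. It was kept without control torin 1 replicate 3 or 4, Ctu1KO DMSO replicate 3 or Ctu1KO torin 1 replicate 6 and lost without any other single library (adjusted p 0.0167 to 0.119 over all of them), and it was lost with library totals (0.0888). With DESeq2, Tpt1 (adjusted p = 0.00533) and Rack1 (0.0474) passed, and with the replicate number as a block Tpt1 (0.00137), Rack1 (0.00200) and Btf3 (0.0365), although same-numbered cultures did not deviate together in all groups of this test. The value itself was -0.71 within replicates 1 and 2 and -0.58 within replicates 3 to 6.

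The content of codons that depend on Ctu1 differed widely among the 5 coding sequences. Rack1 has no AAA codon among its 317 codons, and VAA codons make up 1.58% of them, more than in 2.29% of genes. In Nap1l1, with 391 codons, 4.604% are AAA and 15.9% VAA, more VAA than in 98.2% of genes. AAA made up 4.65% of codons in Tpt1, 3.92% in Btf3 and 3.72% in Naca (its 215-codon isoform), and VAA made up 9.88%, 8.33% and 13.02%. The median was 2.17% AAA and 6.07% VAA over 10114 listed genes and 3.44% and 6.43% over the ribosomal protein genes. The relation of codon content to the footprint differences between genotypes was not tested over these 5 genes.

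The transcripts of the 5 genes were measured by RNA-seq in replicates 1 to 3. With torin 1 in control cells none of the 5 passed the test, against 13.1% of 9617 genes called in either direction (edgeR; 2 had an unadjusted p under 0.05, and DESeq2 called 2, Tpt1 with adjusted p = 0.0237 and Rack1 with 0.0118). Tpt1 RNA stood at 1298, 1233 and 1425 CPM with DMSO and at 1634, 1449 and 1872 CPM with torin 1. Rack1 stood at 909, 880 and 948 CPM with DMSO and at 1044, 1017 and 1088 with torin 1. For both genes every torin 1 library exceeded every DMSO library, as for 11.5% of 9857 genes in this direction, with log2 fold changes of 0.35 ± 0.11 (adjusted p = 0.0889) and 0.23 ± 0.07 (adjusted p = 0.0712).

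Nap1l1 RNA stood at 1338, 1339 and 1578 CPM with DMSO and at 1546, 1510 and 1757 with torin 1 (0.21 ± 0.11). Naca stood at 510, 498 and 528 CPM and at 548, 525 and 583 (0.14 ± 0.07), and Btf3 at 561, 543 and 551 and at 570, 584 and 594 (0.11 ± 0.06). The groups overlapped for Nap1l1 and Naca but not for Btf3. All 5 transcripts were higher with torin 1 in 3 of 3 same-numbered pairs, and the share of all genes with this pattern was not computed. Same-numbered RNA libraries deviated together. With the replicate number as a block, Tpt1 (adjusted p = 5.89e-05), Rack1 (0.000519), Nap1l1 (0.000973) and Naca (0.0177) rose, Btf3 did not pass (0.0528), and the number of genes called went from 1259 to 4206. Of the ribosomal protein transcripts 8 of 82 rose without the block (median 0.17), and of the other TOP mRNAs 8 of 20 (median 0.24), against 5.69% of all genes that rose.

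In Ctu1KO cells the 5 transcripts did not pass the test either, with torin 1 against DMSO, where 8.25% of 9619 genes were called (edgeR; none had an unadjusted p under 0.05, and DESeq2 called 0). The log2 fold changes were 0.22 ± 0.21 (Tpt1), 0.21 ± 0.11 (Rack1), 0.21 ± 0.15 (Nap1l1), 0.18 ± 0.11 (Naca) and 0.15 ± 0.09 (Btf3). Tpt1 stood at 1374, 1394 and 1862 CPM with DMSO and at 1596, 1358 and 2235 with torin 1, with replicate 3 highest in both groups. Rack1 stood at 943, 971 and 1136 CPM and at 1074, 1084 and 1222. With the replicate block, Rack1 (adjusted p = 0.0153), Nap1l1 (0.0333), Tpt1 (0.0403) and Naca (0.0444) rose, and 3378 genes were called in place of 794. Without it, 1 of 82 ribosomal protein transcripts (median 0.16) and 4 of 20 other TOP mRNAs (median 0.23) rose, against 3.73% of all genes.

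Between genotypes, none of the 5 transcripts passed with DMSO, where 5.12% of 10119 genes were called (edgeR; 1 had an unadjusted p under 0.05, and DESeq2 called 0), or with torin 1, where 1.31% of 9650 were called (0 and 0). With DMSO, Naca RNA was 421, 437 and 477 CPM in Ctu1KO cells, below each of the 3 control libraries at 498 to 528, as for 17.4% of 9857 genes in this direction (-0.18 ± 0.08, adjusted p = 0.192). With the replicate block Naca was lower (adjusted p = 0.0269) and Tpt1 higher (0.0299) in Ctu1KO cells with DMSO, Rack1 was higher with torin 1 (0.0352), and 2831 and 3162 genes were called in place of 518 and 126. For the difference of the torin 1 effects none of the 5 transcripts passed (0.0% of 9616 genes were called with edgeR; 0 of the 5 had an unadjusted p under 0.05, and DESeq2 called 0 of them).

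**Figure D4:**
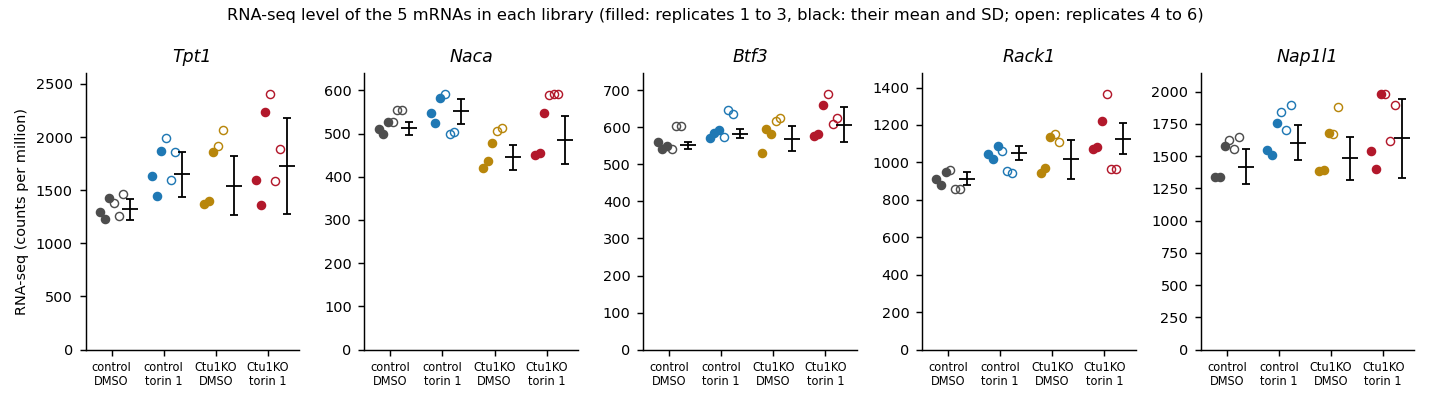
RNA-seq level of each mRNA (vertical axes, CPM, from 0) in each library of the 4 groups, in order of replicate number. Filled points are replicates 1 to 3, with their mean and SD in black, and open points are replicates 4 to 6, some of which lie on the opposite side of their labels. The filled torin 1 points of Tpt1 in control cells (1449 to 1872) lie above those with DMSO (1233 to 1425).

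Translational efficiency is the footprint level relative to the RNA level. It was tested in 1 model of both assays over replicates 1 to 3, as the difference between the footprint and the RNA fold change. This model held no term for the culture, whereas the log2 ratios below are those of same-numbered libraries. With torin 1 in control cells translational efficiency fell for 2 of the 5 mRNAs, against 1.12% of 9616 genes. The log2 ratio of Tpt1 was 0.26, 0.24 and -0.24 with DMSO and between -2.16 and -1.59 with torin 1, and that of Rack1 was between -0.01 and 0.20 and between -1.24 and -0.87. Tpt1 fell by 2.05 ± 0.18 on the log2 scale (adjusted p = 7.79e-05) and Rack1 by 1.26 ± 0.17 (adjusted p = 0.00139). Nap1l1 (-0.62 ± 0.15, adjusted p = 0.0832), Naca (-0.48 ± 0.16, 0.427) and Btf3 (-0.42 ± 0.14, 0.376) did not pass.

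In Ctu1KO cells translational efficiency fell for 3 of the 5, against 1.67% of 9615 genes. The log2 ratio of Tpt1 went from between -0.89 and -0.11 to between -2.96 and -2.42, and that of Rack1 from between -0.14 and -0.08 to between -1.84 and -1.55. Tpt1 fell by 2.504 ± 0.26 (adjusted p = 9.62e-05), Rack1 by 1.73 ± 0.18 (adjusted p = 0.000101) and Btf3 by 0.81 ± 0.17 (adjusted p = 0.0272). Naca (-0.79 ± 0.19, adjusted p = 0.0636) and Nap1l1 (-0.90 ± 0.23, adjusted p = 0.0905) did not pass, and with the culture as a block Nap1l1 did (0.0490). Other settings moved the calls of Naca, Btf3 and Nap1l1 but not those of Tpt1 and Rack1: in control cells Nap1l1 passed with DESeq2 (0.00233) and in replicates 1 and 2 (0.0137) and Btf3 with all replicates (0.00641), and in Ctu1KO cells Naca passed in replicates 1 and 2 (0.0284) and Btf3 did not with library totals (0.105). DESeq2 and all replicates as labelled called 5 of 5 in Ctu1KO cells. Without 1 library, Btf3 kept its call there only without Ctu1KO DMSO replicate 3 and lost it without any of the other 5 (adjusted p 0.0799 to 0.278). Of the ribosomal protein genes 67 of 82 fell in control and 79 in Ctu1KO cells, with medians of -1.14 and -1.79.

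Between genotypes, translational efficiency of the 5 did not pass with DMSO (0.0% of 10117 genes called with edgeR; 1 of the 5 at an unadjusted p under 0.05, and 0 with DESeq2) or with torin 1 (0.114% of 9644 genes called; 5 of the 5 at an unadjusted p under 0.05, as were 451 of all genes, and 1, Tpt1 with adjusted p = 0.0338, with DESeq2). With torin 1 the log2 differences were -0.96 ± 0.24 (Tpt1), -0.72 ± 0.20 (Rack1), -0.53 ± 0.19 (Naca), -0.52 ± 0.17 (Btf3) and -0.51 ± 0.23 (Nap1l1). For the difference of the torin 1 effects none of the 5 passed (0.0312% of 9615 genes called with edgeR; 0 of the 5 at an unadjusted p under 0.05, and 0 with DESeq2).

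**Figure D5:**
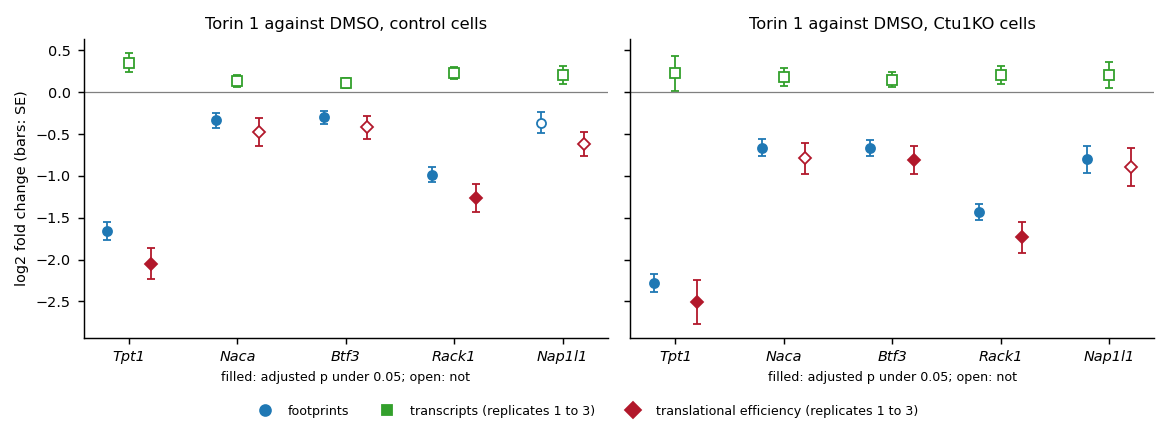
Log2 fold change, torin 1 against DMSO (vertical axis), of footprints, transcripts and translational efficiency of each mRNA in control (left) and Ctu1KO cells (right). Bars are standard errors and filled symbols have an adjusted p under 0.05. Transcript values lie between 0.11 and 0.35, and those of footprints and translational efficiency between -0.30 and -2.504.

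Over the 23 footprint libraries, the genes most like each of the 5 were sought among 8856 genes by the Pearson correlation of log2 CPM. The points share the 4 groups and their libraries, so that the values describe these libraries. The 3 genes most like Tpt1 were Rps27a (r = 0.993), Rps20 (0.988) and the elongation factor Eef1b2 (0.987), and those most like Rack1 were Eef2 (0.993), Rps4x (0.992) and Eef1g (0.990). Of the 50 genes most like Tpt1, Rack1 and Btf3, 31, 32 and 30 were ribosomal protein genes. Btf3 was most like Rps2 (0.948), Rpl30 (0.942) and Rps20 (0.937).

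Naca was most like Btf3 (r = 0.923), the gene of its partner subunit, followed by Rps14 (0.907) and the initiation factor gene Eif3j1 (0.903), with 17 ribosomal protein genes among its 50. The correlation of Naca with Btf3 was 0.902 with the group means removed, whereas that of Naca with Rack1 was 0.709 over all libraries and -0.673 with the group means removed. The genes most like Nap1l1 included Eif3e (0.941), which encodes an initiation factor subunit, and Fxr1 (0.929), which encodes an RNA-binding protein, and 3 of its 50 nearest were ribosomal protein genes. Ribosomal protein genes made up 0.926% of the 8856 genes. The correlation of Nap1l1 with Tpt1 was 0.802, and 0.789 with the group means removed.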

How the data were processed

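The authors deposited raw counts per gene for each library, with no normalization. Per the authors' methods and the labels, footprint reads were trimmed (cutadapt 3.4), fragments under 27 bases were discarded, molecular identifiers were extracted (UMI-tools 1.1.1), rRNA reads were removed and the rest was aligned and counted with STAR 2.5.3a. The labels give mm10 (GRCm38), whereas the methods name a human build for footprints. RNA libraries were stranded, poly(A)-selected and paired-end, and all their counts were even. Each table entry reached at least 100 footprint counts in some library, so less abundant genes were not analysed here.

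Symbols on several entries (11) were left out. Genes with a mean count of at least 10 were tested with edgeR 4.0.16 (TMM, quasi-likelihood, R 4.3.3), with Benjamini-Hochberg adjustment over all genes and calls at an adjusted p under 0.05. DESeq2 1.42.0, library totals, no count filter, the replicate block, replicate subsets and leaving out each library were alternatives. On simulated counts the scripts were checked with 200 changed genes. Ratios were compared with exact permutation tests on log2 CPM (pseudocount 1). Likeness was computed over genes with a mean footprint count of at least 100.

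Same-numbered cultures were taken as paired where every correlation of their deviations from the group means exceeded 0.1. This held for footprints between control groups (r = 0.418 to 0.627) and between torin 1 groups (0.289 to 0.534) and for RNA replicates 1 to 3 (0.264 to 0.738). It did not hold for footprints of the Ctu1KO groups (-0.04 to 0.411) or the DMSO groups (-0.10 to 0.446). Within replicates 1 to 3 these values were 0.187 to 0.411 and 0.251 to 0.446. Footprints and RNA of the same number were taken as 1 culture in replicates 1 to 3. Of these, the label check could test only replicate 3, where both lay on the side of their labels. For ribosome profiling the methods name 2 biological replicates, on consecutive days, whereas figure legends count 5 or 6 independent experiments, as many as the labels number. For RNA sequencing 2 are named. The tests treat each number as independent, and their p-values are too small if that does not hold.

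Named genes were the 5 members, their relatives, the 3 other TOP mRNAs with the highest footprint CPM in control cells with DMSO, and the 3 genes most like each member, of which 1 is not reported here. Members and lists were chosen with earlier results of these data known.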

Additional observations from a re-analysis of the deposited data

Results flagged for a closer look

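Of the 20 groups of footprint values (5 mRNAs in 4 groups), 1 held a library far from the others by Dixon's test, and chance gives about 1 in 20. This was Naca in Ctu1KO cells with DMSO, where replicate 3 stood at 567.6 CPM and the other 4 at 726 to 743 CPM. Without that library the log2 fold change of Naca footprints between genotypes with DMSO was -0.25 and did not pass the test. The same library was also the lowest of its group for Tpt1 (1004 CPM), Btf3 (714 CPM) and Nap1l1 (1445 CPM) and the highest for Rack1 (1030 CPM).

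The torin 1 effect on Tpt1 footprints differed between genotypes by -0.62 on the log2 scale, by the test of the difference itself (adjusted p = 0.0491, edgeR). Depth moved with the groups: footprint libraries held a median of 26312873 counts in control with DMSO and of 10582524 in Ctu1KO cells with torin 1, and its part in the result was not tested.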

How the results depend on the processing

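Counts of the 5 mRNAs called changed by over 1.5 times as follows (smaller changes are in the report). The cause was not tested except where fewer samples were used. With library totals, 2 (in place of 4) were called for footprints with torin 1 in control cells and 0 (in place of 1) for the difference of the torin 1 effects. With DESeq2, footprints gave 1 (in place of 0) between genotypes with DMSO and 2 for the difference of effects, transcripts gave 2 with torin 1 in control cells, and translational efficiency gave 5 (in place of 3) with torin 1 in Ctu1KO cells and 1 between genotypes with torin 1. Replicates 1 and 2 alone gave 2 for footprints with torin 1 in control and 2 in Ctu1KO cells, 0 between genotypes with torin 1 and 0 for the difference of effects, and, for transcripts, 3 with torin 1 in control cells and 1 between genotypes with DMSO. Footprints of replicates 3 to 6 gave 0 for the difference of effects. All RNA replicates as labelled gave 1 for transcripts with torin 1 in control cells, 2 between genotypes with DMSO, and for translational efficiency 5 with torin 1 in Ctu1KO cells and 4 between genotypes with torin 1. Leaving out 1 library gave 2 to 4 and 0 to 1 for the first 2 footprint counts named above, 2 to 3 and 2 to 4 for translational efficiency with torin 1 in control and Ctu1KO cells, and 7 to 8 for each of the 2 sets of ratio tests (8 of 10 and 7 of 8 called). In replicates 3 to 6 alone the ratio tests could not reach the threshold after adjustment, so that their 0 calls say nothing on stability.

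With the replicate block, transcripts gave 4 with torin 1 in control cells, 4 in Ctu1KO cells, 2 between genotypes with DMSO and 1 with torin 1. Where same-numbered cultures shared only a number, the block gave 1 for footprints between genotypes with DMSO (Naca, adjusted p = 0.0441, 364 genes called), 983 genes with torin 1 in Ctu1KO cells and 3 for the difference of effects (Tpt1, Rack1 and Btf3, 139 genes called), with the best correlation at the own number in 3 of 5 and 2 of 5 pairs for the first and second. Paired sign changes of the ratios called 0 and could not reach the threshold. The block changed no call of the 5 not given here or in the report.

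Directions turned, for values that did not pass, with library totals for Btf3l4 (0.0736 in control, 0.0740 in Ctu1KO cells), Nap1l4 (0.0370, control), Gnb1 (0.0494, Ctu1KO), and for footprints between genotypes with DMSO for Btf3 (0.00753) and Nap1l1 (0.000993). With replicates 3 to 6 they turned for Btf3l4 (0.12, control) and Nap1l1 (0.0393, genotypes with DMSO), with replicates 1 and 2 for Btf3l4 (0.13, Ctu1KO) and for transcripts between genotypes with torin 1 for Tpt1 (-0.0105) and Nap1l1 (-0.00660), with all RNA replicates for Naca (0.0206, same comparison), and with the list median for Rack1 against ribosomal proteins (0.0124, control). Without 1 library, ranges spanned 0 for footprints of Btf3l4 (-0.0978 to 0.0587 in control, -0.131 to 0.0992 in Ctu1KO cells) and Gnb1 (-0.0998 to 0.0170, Ctu1KO), for Btf3 (-0.0708 to 0.0209) and Nap1l1 (-0.158 to 0.0404) footprints between genotypes with DMSO, for transcripts of Tpt1 with torin 1 in Ctu1KO cells (-0.00706 to 0.40), Nap1l1 between genotypes with DMSO (-0.0245 to 0.17), and Tpt1 (-0.12 to 0.26) and Nap1l1 (-0.0826 to 0.18) with torin 1, and for Rack1 against ribosomal proteins in control cells (-0.103 to 0.0260).

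Over all genes, the numbers called for footprints were 714 with torin 1 in control cells (134 in replicates 1 and 2), 788 in Ctu1KO cells (144), 277 between genotypes with DMSO (700 with DESeq2, 0 in replicates 1 and 2, 184 in replicates 3 to 6, 144 to 285 without 1 library), 479 with torin 1 (842, 0, and 301 to 572 without 1 library) and 63 for the difference of effects (107 with DESeq2, 1 in replicates 1 and 2). For transcripts, in the same order, they were 1259 (1963 with DESeq2, 412 to 1233 without 1 library), 794 (1609, 123 to 1123, and 0 with all replicates), 518 (1530, 0 to 511, 1547 in replicates 1 and 2, 2677 with all replicates), 126 (1092, 1 to 406, 12 and 0) and 0 (3 with DESeq2). For translational efficiency they were 113 (227 with DESeq2, 63 to 104 without 1 library), 170 (314, 105 to 163, 257 with all replicates), 0 (21, 5 with all replicates, 1 with library totals, 1 with the block), 11 (99, 0 to 8, 113 with all replicates, 3 with library totals, 2 in replicates 1 and 2) and 3 (31, 1 to 4, 1 with library totals, 1 in replicates 1 and 2). With library totals the lower and higher calls were 327 and 602 in place of 427 and 287 for footprints with torin 1 in control cells, 317 and 580 in place of 445 and 343 in Ctu1KO cells, 80 and 218 in place of 108 and 169 between genotypes with DMSO, 202 and 281 in place of 258 and 221 with torin 1, and for transcripts 891 and 445 in place of 712 and 547, 650 and 289 in place of 435 and 359, 210 and 263 in place of 182 and 336, and 41 and 57 in place of 34 and 92. For translational efficiency in Ctu1KO cells they were 124 and 29 in place of 161 and 9. Library totals moved the median of all genes to 0.10 and 0.11 for footprints and to 0.16 and 0.20 for translational efficiency, with torin 1 in control and Ctu1KO cells.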
